A study of Mus musculus with 3 samples.

Results

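Delta cells, the somatostatin cells of the pancreatic islet, were divided by whether at least 1 Neurog3 transcript had been counted in them. Cells were selected on measured values. A barcode was kept with at least 500 genes, at most 15% of its UMIs (unique molecular identifiers, each counting 1 captured transcript) from mitochondrial genes, and at least 5000 UMIs. It was called a delta cell when Sst, which encodes somatostatin, gave at least 8% of its UMIs, Ins1 and Ins2 together under 10%, and Gcg and Ppy under 5% each. Of 16162 barcodes, 7490 passed the limits on genes and mitochondrial UMIs, and 620 were delta cells by this rule. Of these, 289 held 1 or more Neurog3 UMIs and 331 held 0. Neurog3, Sst, the other hormone genes and the mitochondrial genes chose the cells, so their values are given as a description and no test of them is reported.

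The cells came from the islets of 3 female NOD-SCID mice aged 10-11 weeks, recorded as non-diabetic, with 1 droplet library of 3′ transcript ends per mouse. NOD-SCID mice combine the NOD background with a mutation that blocks the development of B and T lymphocytes. The labels name no treatment, injury or transgene, and the 3 mice form 1 group. The series title concerns a non-endocrine origin of regenerated beta cells, and the comparison here lies within the endocrine delta cells of each mouse.

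Neurog3 encodes neurogenin 3, a basic helix-loop-helix transcription factor that commits progenitors of the embryonic pancreas to the endocrine fate. It acts upstream of factors such as Neurod1, Insm1, Pax4 and Rfx6, and Notch signalling represses it through Hes1. Its transcript is abundant for a short time in the fetal progenitor and low in adult islets, where delta cells, defined by Sst and the homeobox factor Hhex, are the minority cell type that restrains the release of insulin and glucagon.

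In the mm10 build Neurog3 (ENSMUSG00000044312) lies on the plus strand at chr10:62133090-62134763, inside the body of Fam241b, a gene on the minus strand at chr10:62107655-62143920. The 250 bases before the Neurog3 start, chr10:62132840-62133089 on the plus strand (RefSeq, GRCm38.p6), are shown because they lead into the gene that divides the cells and lie within the Fam241b body. Capitals mark the only match to the E-box motif CANNTG, the letters that basic helix-loop-helix factors bind, 165 bases before the start. The motif reads the same on both strands, and 66.2% of 32851 promoter windows of this length hold at least 1 match.
Neurog3 promoter: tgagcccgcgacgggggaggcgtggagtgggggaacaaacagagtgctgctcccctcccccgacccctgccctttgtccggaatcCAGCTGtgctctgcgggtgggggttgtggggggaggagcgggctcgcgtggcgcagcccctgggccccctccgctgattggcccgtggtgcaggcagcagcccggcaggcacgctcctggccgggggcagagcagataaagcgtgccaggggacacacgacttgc

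Neurog3 was, among the islet classes examined, at its highest in delta cells in every mouse. Its level in the summed UMIs of delta cells was 53.7, 41.5 and 62.3 CPM (UMIs scaled to a total of 1000000) in mice 1, 2 and 3, a mean of 52.5 ± 10.4 (SD, n = 3). Insulin-rich cells, with at least 20% insulin UMIs and under 5% of each other hormone, held 0.465, 0.775 and 0.0807 CPM. Glucagon-rich cells, with at least 20% Gcg, insulin under 10% and the others under 5%, held 0.745, 0.257 and 0.239 CPM. Ppy-rich cells, with at least 10% Ppy, insulin under 10% and Sst under 5%, held 0, 0 and 0.436 CPM. The lowest delta level was thus above every level in the other classes, and no test was made because the split itself uses this gene.

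The share of cells with a Neurog3 UMI showed the same order. It was 38 of 69 delta cells in mouse 1 (55.1%, exact Clopper-Pearson 95% interval 42.6 to 67.1), 52 of 125 in mouse 2 (41.6%, 32.9 to 50.8) and 199 of 426 in mouse 3 (46.7%, 41.9 to 51.6). The mean over mice was 47.8% ± 6.80 (SD, n = 3), and these intervals cover counting error only. Among other endocrine cells of at least 5000 UMIs, 16 of 1065 insulin-rich, 11 of 1504 glucagon-rich and 2 of 216 Ppy-rich cells held a Neurog3 UMI. The insulin-rich cells had median depths of 41990, 13584 and 34083 UMIs, each above the delta medians of 18469, 12686 and 12466.5 UMIs. Endothelial-like cells, named from at least 3 of their markers, held none in 179, and macrophage-like cells none in 180. In mouse 3, the mouse with most of both, 0 of 83 endothelial-like cells allows a share of up to 3.61% and 0 of 129 macrophage-like cells up to 2.33%, taking 3 cells of the total as the limit. The exact upper bounds were 4.35% and 2.82%. Their median depths there were 6196 and 10075 UMIs, below that of the delta cells.

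**Figure D1:**
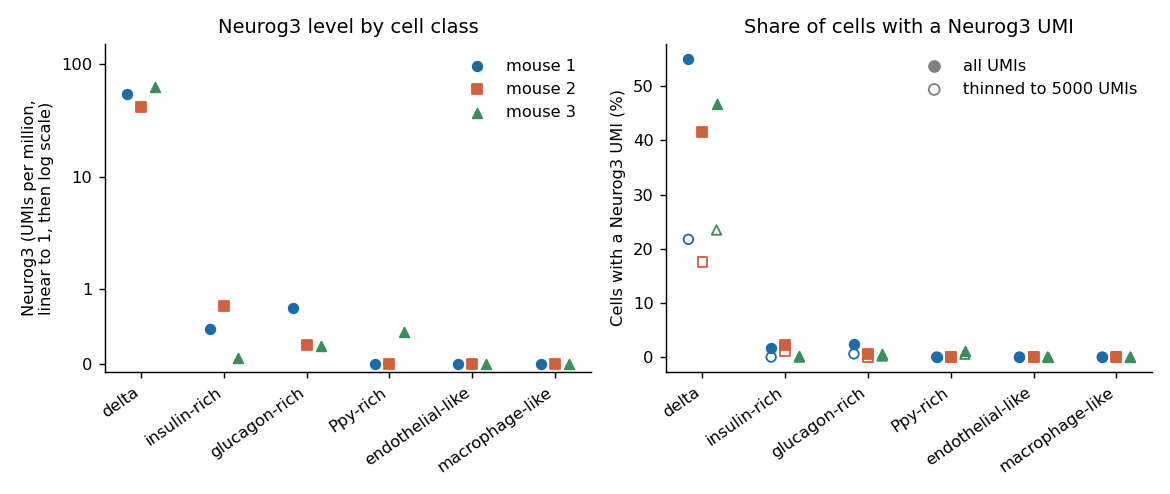
Neurog3 in 6 cell classes, 1 point per mouse (circle, square and triangle for mice 1, 2 and 3). The left panel gives CPM in each class's summed UMIs on an axis that is linear to 1 and logarithmic above, and the right panel the percent of cells with a Neurog3 UMI with all UMIs (filled) and after thinning to 5000 UMIs (open). Delta cells lie between 41.5 and 62.3 CPM and every other class below 1 CPM.

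Most positive cells held a single Neurog3 molecule. In mouse 1, 21 of the 38 positive cells had 1 UMI and 17 had 2 or more. In mouse 2 these numbers were 32 and 20, and in mouse 3 they were 114 and 85, with a highest count of 9 UMIs in 1 cell of mouse 3. The line between the sides therefore falls between 331 cells with 0 UMIs and 167 cells with 1 UMI. Just inside the limit on Sst, at 8 to 9% of UMIs, 5 of 8 cells held Neurog3, and just outside it, at 7 to 8%, 0 of 6 did. Between 5000 and 6000 UMIs 2 of 18 cells held Neurog3, and between 4000 and 5000 UMIs, outside the rule, 4 of 22 did.

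Whether a delta cell showed Neurog3 moved with how deeply it was sequenced, while the level of Neurog3 did not rise with depth. Over the 3 mice, 33.6% of cells with 5000 to 10000 UMIs held a Neurog3 UMI, 45.3% of those with 10000 to 15000, 50.8% of those with 15000 to 20000 and 65.9% of those with 20000 or more. In the same 4 ranges the level was 54.5, 63.2, 57.8 and 47.7 CPM. Within each mouse the share was lowest in the shallowest cells and highest in the deepest, from 40.0% to 66.7% in mouse 1, from 28.3% to 67.6% in mouse 2 and from 35.5% to 63.0% in mouse 3. When each cell was thinned at random to 5000 UMIs, the share fell to 21.7%, 17.6% and 23.5%, a mean of 20.9% ± 3.02 (SD, n = 3). Only 137 of the 289 positive cells kept a Neurog3 UMI in that draw. The side without Neurog3 thus holds cells in which no transcript was captured, and 0 UMIs does not show that a cell lacked the transcript.

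**Figure D2:**
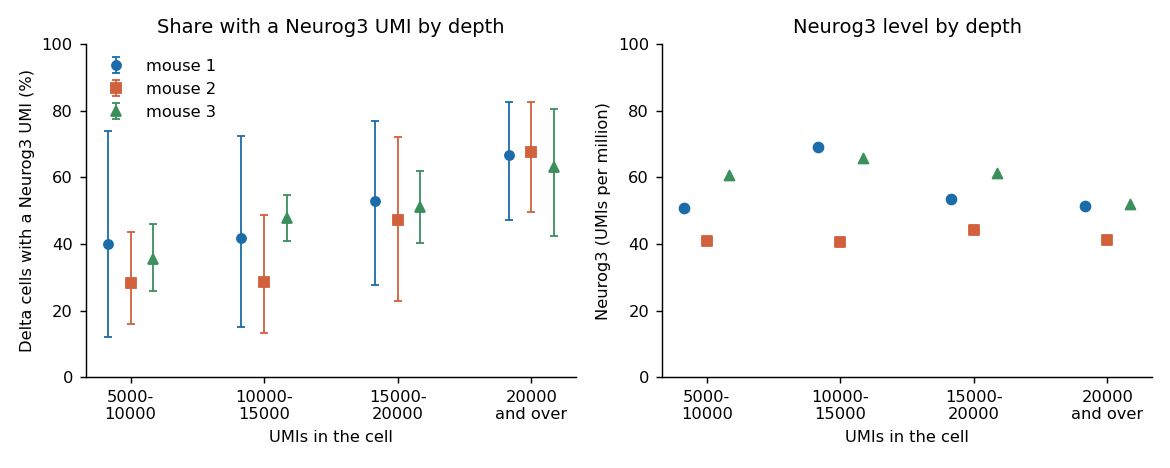
Delta cells in 4 ranges of total UMIs, 1 symbol per mouse. The left panel gives the percent of cells with a Neurog3 UMI with exact 95% intervals, which over the 3 mice went from 33.6% to 65.9%, and the right panel Neurog3 in CPM, which lay between 40.7 and 69.2 in every mouse and range.

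The sides accordingly differed in depth. Median UMIs with and without Neurog3 were 20451.5 and 16364 in mouse 1, 18127.5 and 10824 in mouse 2, and 13347 and 11906 in mouse 3, and were higher with Neurog3 in 3 of 3 mice. Median genes per cell were 4334 and 3782, 4037.5 and 2885, and 3593 and 3393. In cells thinned to 5000 UMIs the gap in genes nearly closed, to 1781 and 1698, 1787 and 1720, and 1876 and 1862. The mean difference of 54.7 genes had an exact two-sided paired permutation p of 0.25, the smallest that 3 pairs can give. Sst took a median of 20.8% and 19.7% of UMIs in mouse 1, 19.8% and 17.4% in mouse 2, and 21.7% and 22.0% in mouse 3, higher with Neurog3 in 2 of 3 mice. In the summed UMIs scaled by TMM, edgeR's correction for library makeup, Sst had log2 differences of -0.17, 0.03 and -0.07, so mouse 1 had the opposite direction there. The mitochondrial share was 4.13% and 4.00%, 3.27% and 3.66%, and 2.55% and 2.69%.

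Both sides carried the delta markers. Hhex, which defines delta identity, was at 399 CPM with and 328 without Neurog3 in mouse 1, 411 and 372 in mouse 2, and 348 and 348 in mouse 3. These and the CPM that follow are scaled by TMM. The log2 difference of Hhex, with minus without, was 0.11 (95% interval -0.03 to 0.25) and did not pass the test. In the 620 cells together, Hhex was at 364 ± 11.7 CPM (SD, n = 3 mice), against 5.54 in insulin-rich cells. Of 14 genes on a list of delta identity, 11 were abundant enough to test and 0 were called by edgeR, with 0 at an unadjusted p under 0.05. Among all genes tested these shares were 0.082% and 5.37%. All 11 had 95% intervals that lay between -1 and 1, so a 2-fold difference in either direction was outside them. Lepr, Bche and Sstr1 were too low to test, and Lepr, the leptin receptor, had 3 UMIs with and 1 without Neurog3.

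Across all genes, the summed UMIs of delta cells with and without a counted Neurog3 UMI were close to each other. A cell with 0 UMIs may still have held the transcript, so this does not compare cells that have it with cells that lack it. UMIs were summed per mouse and side and compared with the mouse as a block. Of 8540 genes tested, 7 passed an adjusted p of 0.05 (edgeR's quasi-likelihood test, Benjamini-Hochberg over all genes), 3 higher and 4 lower with Neurog3, which is 0.082% of the genes tested. The adjustment ran over 8559 genes, including those that chose the cells, and taking these out, a step added after the data were seen, left the same 7 calls. At an unadjusted p under 0.05 there were 459 genes, 5.37%. The median log2 difference was 0.00, and 14 genes differed by 1 or more on the log2 scale. All 7 kept their sign in each of 18 other settings, but DESeq2 called none of them and had 16 genes at an unadjusted p under 0.05. The sides are cells of the same libraries and the mouse was a block. The spread measured is thus that of the difference between sides across 3 mice, largely pooled over genes, and not that between animals. With no block edgeR called 0 genes.

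Gap43, a membrane protein of nerve growth cones that delta cells express, had the smallest p of the higher genes. It stood at 416 CPM with and 340 without Neurog3 in mouse 1, 302 and 243 in mouse 2, and 357 and 249 in mouse 3. The side with Neurog3 was higher within each mouse, while the ranges over mice overlapped. The log2 difference was 0.41 ± 0.08 (SE, edgeR adjusted p = 0.00106), and without mouse 3 it was 0.30 with an adjusted p of 0.997. Gap43 is a delta gene as such, at 315 ± 52.4 CPM (SD, n = 3) against 3.64 in insulin-rich and 3.06 in glucagon-rich cells.

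H1fx, with the largest log2 difference of the 3 genes called higher, encodes a variant linker histone. Its levels with and without Neurog3 were 115 and 66.1 CPM in mouse 1, 78.4 and 76.3 in mouse 2, and 162 and 104 in mouse 3. The difference was thus carried by mice 1 and 3, and mouse 2 showed almost none. The log2 difference was 0.55 ± 0.12 (SE, edgeR adjusted p = 0.0103). It was not called without mouse 1 (adjusted p = 0.0762) or without mouse 3 (0.997).

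Resp18, an endocrine protein of the secretory pathway, was at 6538 and 5019 CPM in mouse 1, 4567 and 4254 in mouse 2, and 8074 and 6941 in mouse 3. It was higher with Neurog3 in every mouse, by less than the spread between mice. The log2 difference was 0.23 ± 0.05 (SE, edgeR adjusted p = 0.0119), and only leaving out mouse 2 kept the call.

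Hspb1, a small heat shock protein that binds unfolded proteins, was the gene with the smallest p. It stood at 244 and 383 CPM in mouse 1, 144 and 274 in mouse 2, and 467 and 585 in mouse 3, lower with Neurog3 in every mouse. The log2 difference was -0.54 ± 0.08 (SE, edgeR adjusted p = 8.0e-06). Of the 7 genes it alone was called whichever mouse was left out, with log2 differences of -0.79 to -0.42. In cells of 10000 or more UMIs it was not called (-0.66 ± 0.18, SE, edgeR adjusted p = 0.9996). DESeq2 did not call it either (-0.61, adjusted p = 0.708).

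The other 3 genes called lower fall outside the rule for named genes and were chosen after their values were seen. Fxyd3, a regulator of the sodium pump, was at 49.6 and 43.4 CPM in mouse 1, 31.8 and 65.1 in mouse 2, and 29.4 and 55.1 in mouse 3, so mouse 1 went the other way. Its log2 difference was -0.73 ± 0.16 (SE, edgeR adjusted p = 0.0223), and it was called only when mouse 1 was left out. Gm26825, a long noncoding RNA model, stood at 62.9 and 109, 55.1 and 95.4, and 22.2 and 33.2 CPM. Its log2 difference was -0.71 (adjusted p = 0.0119), and the call was lost whichever mouse was left out. Gm42418, a gene model in a stretch of chromosome 17 with ribosomal RNA sequence, stood at 32866 and 41776, 25220 and 35714, and 3838 and 4184 CPM. Its level differed far more between mice than between sides, and its log2 difference was -0.32 ± 0.05 (edgeR adjusted p = 1.29e-05). Without mouse 2 it was not called (log2 difference -0.24, adjusted p = 0.345).

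**Figure D3:**
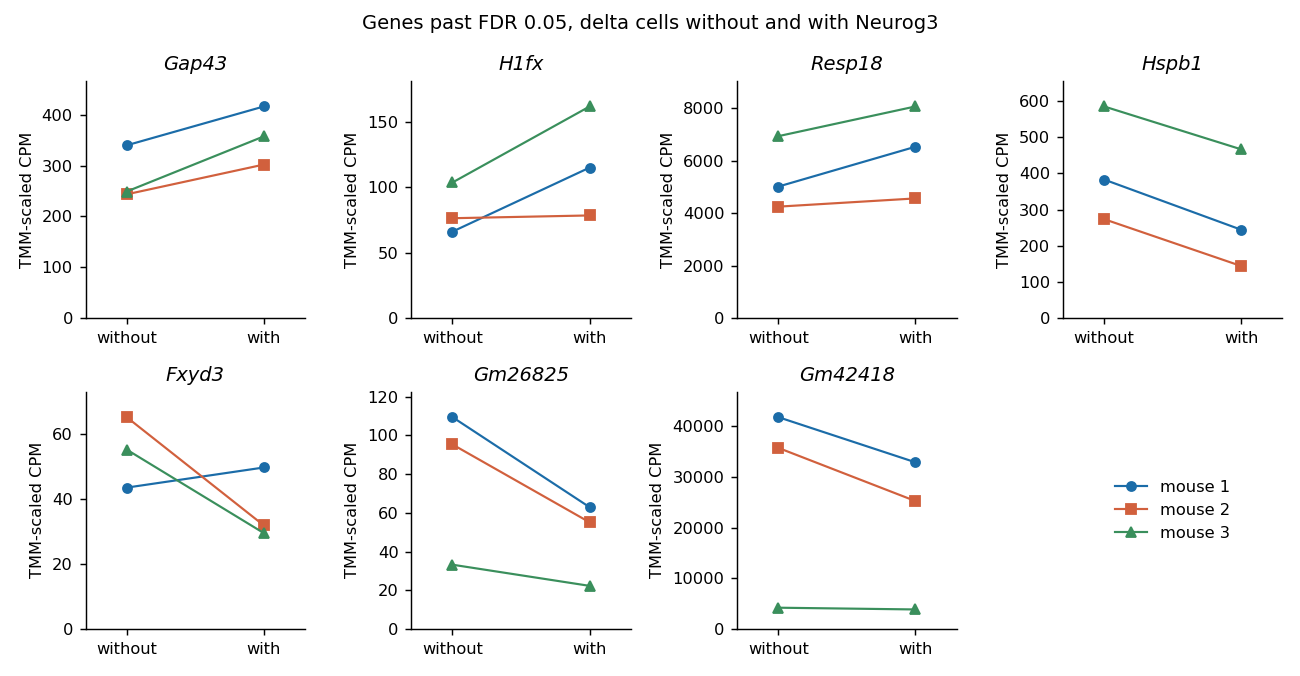
TMM-scaled CPM of the 7 genes past an adjusted p of 0.05, without and with Neurog3, 1 line per mouse and each axis from 0. Gap43, H1fx and Resp18 rise to the right in 3 of 3 mice, Hspb1, Gm26825 and Gm42418 fall in 3 of 3, and Fxyd3 rises in mouse 1.

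Most of these calls were lost on thinning. Thinning also lowers the UMIs in each sum, so a lost call does not by itself show that the difference went. With every cell cut to 5000 UMIs and its side kept, 4448 genes were tested, against 8540 before. Of these 3 were called, 0.0674%, all lower with Neurog3, and 228 had an unadjusted p under 0.05. Gm42418 had a log2 difference of -0.32 (edgeR adjusted p = 0.000349). AY036118, a transcript of the same chromosome 17 stretch, had -0.58 (0.0174), and Malat1, a nuclear noncoding RNA, -0.25 (0.032). A second draw of 5000 UMIs, added after the data were seen, called 0 genes with edgeR and had 190 at an unadjusted p under 0.05, so these calls rest on the draw. The 5 protein-coding genes kept their direction without passing the test. Gap43 was at 0.47 (edgeR adjusted p = 0.157), Resp18 at 0.22 (0.41), Hspb1 at -0.37 (0.442), Fxyd3 at -0.67 (0.852) and H1fx at 0.25 (0.967) on the log2 scale. The noncoding Gm26825 was at -0.89 (0.295). The SE of Gap43 was 0.13, against 0.08 before thinning. With the sides taken anew from the thinned counts, 1 gene was called, Fxyd3, at -1.80 (edgeR adjusted p = 0.0146).

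Gm42418 and Malat1, called after thinning, also moved with depth where Neurog3 was not counted at all. Within the side without Neurog3, cells of each mouse were divided at the median into deeper and shallower, a step added after the data were seen. Gm42418 was lower in the deeper cells by log2 differences of -0.69, -0.94 and -0.53 in mice 1, 2 and 3. Malat1 was lower there too, by -0.61, -0.25 and -0.29. Gap43 was at 0.30, -0.06 and 0.51, beside differences between the sides of 0.29, 0.31 and 0.52 in the same mice. In mice 1 and 3 its difference with depth was thus about as large as that between the sides. Hspb1 was at 0.06, 1.40 and -0.69, and neither gene had a single direction with depth. Thinning equalises the UMIs read from a cell but leaves the make-up of its library as it was, and the part that depth has in these differences was not tested beyond these values. Each cell of a mouse's smaller side was also set beside the unused cell of the other side nearest in depth, in 31, 52 and 199 pairs. In mouse 1 this used all 31 negative cells, so only the positive cells were reduced there, from 38. Hspb1 alone was called (log2 difference -0.57, edgeR adjusted p = 0.00594). Among the calls lost, Gap43 was at 0.38, H1fx at 0.53, Resp18 at 0.23, Fxyd3 at -0.76, Gm26825 at -0.62 and Gm42418 at -0.21. Median depths were then 18298 and 16364, 18127.5 and 13037.5, and 13347 and 12427 UMIs, still higher with Neurog3.

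**Figure D4:**
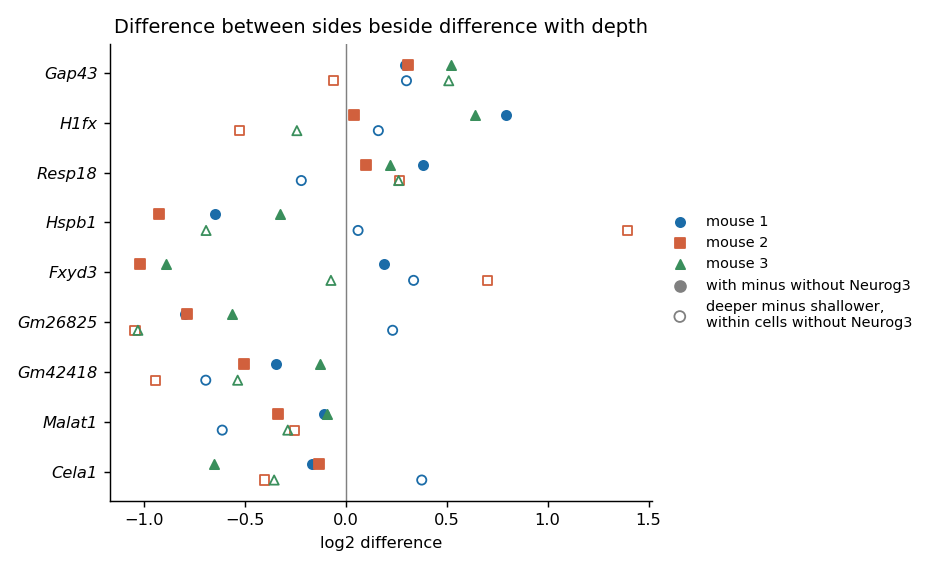
Log2 differences of the 7 called genes, Malat1 and Cela1 between delta cells with and without Neurog3 (filled) and between deeper and shallower cells within the side without Neurog3 (open), 1 symbol per mouse. For Gm42418 and Malat1 all filled and all open symbols lie below 0, and for Gap43 and Hspb1 the open symbols lie on both sides of 0.

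A stricter split set cells with 2 or more Neurog3 UMIs, 17, 20 and 85 in mice 1, 2 and 3, against those with 0. Depth was not set equal in this split, and it was not tested in thinned cells. Of 7746 genes tested 9 were called, 0.116%, 1 higher and 8 lower, and 5 of them were among the 7. H1fx was higher (log2 difference 0.66, edgeR adjusted p = 0.0446). Hspb1 was lower by -0.80, Fxyd3 by -1.77, Gm26825 by -0.89 and Gm42418 by -0.45. The others, named after their values were seen, were Npy (-1.61), Stmn1 (-1.78), Cela1 (-0.58) and Prss2 (-0.41). Npy, a neuropeptide, stood at 18.1 and 26.5 CPM in mouse 1, 52.4 and 217 in mouse 2, and 26.6 and 72.1 in mouse 3. Stmn1, a microtubule regulator of dividing cells, went the other way in mouse 1, at 13.6 and 3.79 CPM, against 17.2 and 81.6 in mouse 3. Cela1 and Prss2 are digestive enzymes of acinar cells.

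The genes that Neurog3 controls or accompanies in the fetal pancreas did not pass the test. Of 25 on this list 19 were tested and 0 were called by edgeR. Among all genes tested 0.082% were called, a share so low that 0 of 19 does not set the list apart. Of the 19, 14 were above and 5 below 0, with a median log2 difference of 0.06 against 0.00 over all genes. Of all genes tested, 51.1% were above 0. At an unadjusted p under 0.05 there were 3 of the 19, all higher with Neurog3, beside 5.37% of all genes tested. For 17 of the 19 the 95% interval lay between -1 and 1, which leaves a 2-fold difference between the sides as counted outside it. It does not speak to cells that lack the Neurog3 transcript, which the sides cannot separate.

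Factors of the endocrine cascade that Neurog3 starts had differences near 0. Neurod1, a factor that follows Neurog3, was at 94.4 and 88.7 CPM in mouse 1, 96.4 and 83.0 in mouse 2, and 93.4 and 94.9 in mouse 3. Its log2 difference was 0.06 (95% interval -0.18 to 0.29). Insm1, a zinc finger factor of endocrine differentiation, was at 174 and 185, 188 and 150, and 169 and 165 CPM, with 0.08 (-0.10 to 0.27). Neither had 1 direction in all mice. Rfx6, needed for islet cell types to form, had 0.07 (-0.16 to 0.31), St18 0.06 (-0.16 to 0.28) and Myt1 0.02 (-0.45 to 0.49). The LIM factor Isl1, at 426 ± 40.6 CPM over all delta cells, had 0.01 (-0.13 to 0.15), and Pax6 had -0.12 (-0.27 to 0.04).

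Of the list, 3 other members had an unadjusted p under 0.05. Tox3, a chromatin protein, was at 83.5 and 75.5 CPM in mouse 1, 87.9 and 61.7 in mouse 2, and 102 and 80.0 in mouse 3. Its log2 difference was 0.35 ± 0.12 (SE, edgeR adjusted p = 0.619). Sox4, a factor of endocrine progenitors, was at 73.8 and 73.6, 95.4 and 74.0, and 96.2 and 75.7 CPM, with 0.30 (adjusted p = 0.779). Gadd45a, a stress and growth arrest gene, was at 9.68 and 3.77, 20.1 and 6.73, and 14.0 and 11.3 CPM, with 0.68 (adjusted p = 0.828).

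Several progenitor genes were at or near 0 on both sides. Pax4, the factor that favours beta and delta fates in the embryo, and Neurod2 had 0 UMIs in all 620 cells. Nkx6-1, a beta cell factor, had 31 UMIs with and 16 without Neurog3, Mfng 13 and 9, and the Notch ligand Dll1 6 and 6. All of these were too low to test. Fev, a marker of the stage after Neurog3, was at 21.8 and 13.2 CPM in mouse 1, 17.0 and 21.3 in mouse 2, and 22.2 and 15.3 in mouse 3, a log2 difference of 0.36 (95% interval -0.12 to 0.85).

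**Figure D5:**
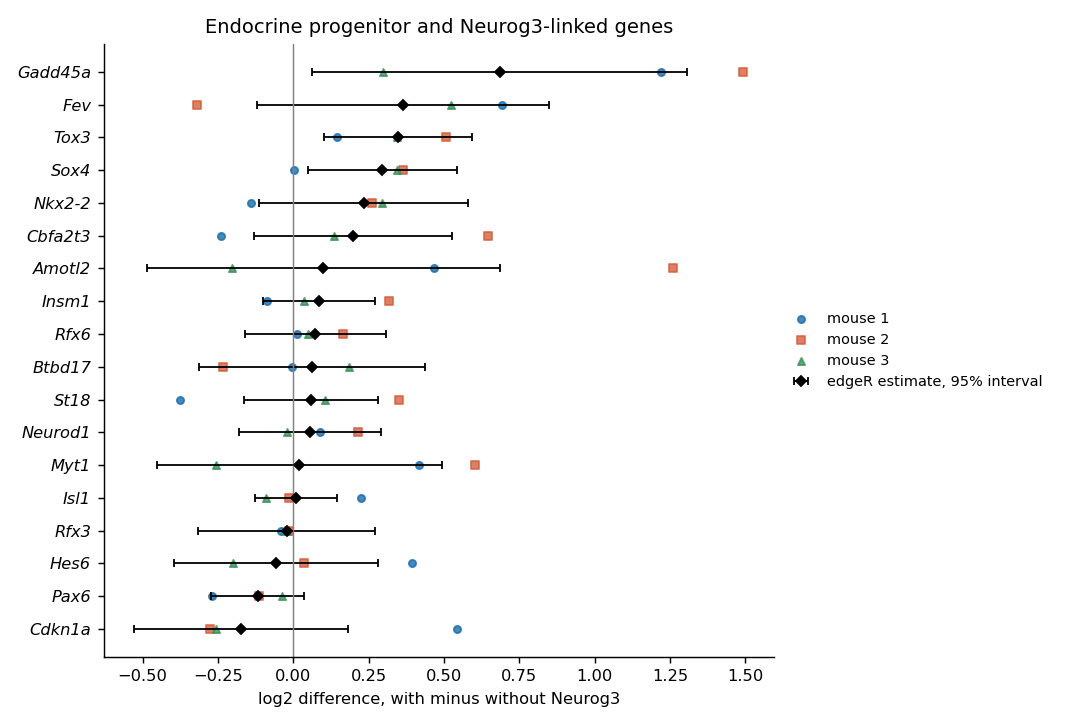
Of the 19 tested genes of the endocrine progenitor list 18 are plotted, as log2 difference with minus without Neurog3. Diamonds and bars are edgeR estimates with 95% intervals and small symbols the single mice. None passed an adjusted p of 0.05, and Gadd45a, Tox3 and Sox4 have intervals above 0.

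Notch pathway genes, which repress Neurog3 in progenitors, were mostly too low to test. Of 16 on the list 4 were tested and 0 were called, with 0 at an unadjusted p under 0.05. Among all genes tested these shares were 0.082% and 5.37%. The receptor Notch1 had a log2 difference of -0.37 (95% interval -0.89 to 0.16) and the transcription factor Rbpj 0.40 (-0.07 to 0.87). Hes1, the repressor of Neurog3, had 30 UMIs with and 32 without.

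Of 15 genes of neuronal growth that delta cells carry 12 were tested, 1 was called higher (Gap43) and 9 were above 0, with a median of 0.15. Among all genes tested 0.082% were called and 51.1% were above 0. Caly, a vesicle protein of neurons, was at 189 and 172 CPM in mouse 1, 246 and 195 in mouse 2, and 218 and 181 in mouse 3, with a log2 difference of 0.26 (edgeR adjusted p = 0.503). Caly was higher in the deeper cells of the side without Neurog3 as well, by 0.86, 0.61 and 0.71. Basp1, a growth cone protein, had 0.20 (adjusted p = 0.901).

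No listed gene of other endocrine types was called, beside 0.082% called among all genes tested. Of 12 beta cell genes 8 were tested, 0 were called and 7 were below 0. The lipid and glucose factor Mlxipl had a log2 difference of -0.27 (edgeR adjusted p = 0.779). Of 10 alpha cell genes 6 were tested and 0 called, 3 above and 3 below 0. Of 10 other hormone genes 5 were tested and 0 called. Pyy, the most abundant of these, was at 20995 and 15732 CPM in mouse 1, 23722 and 19254 in mouse 2, and 16566 and 19921 in mouse 3, so mouse 3 went against the others.

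No member of 5 lists of cell function passed the test, beside 0.082% called among all genes tested. Of 18 granule and hormone processing genes 17 were tested, 0 were called, and 8 were above and 9 below 0. Pcsk1n, an inhibitor of the convertase that cleaves prohormones, had a log2 difference of 0.17, and Pam, which amidates peptides, -0.19 (edgeR adjusted p = 0.463 and 0.514). Of 20 protein folding genes 19 were tested and 0 called, with Ddit3, a factor of prolonged stress, at -0.49 (adjusted p = 0.59). All 18 nuclear genes of oxidative phosphorylation were tested and lay above 0, with a median of 0.08 and 0 called. After thinning 14 of these 18 were above 0. Of 18 genes of the response to tissue dissociation, all tested, 12 were above 0 and 0 were called. Cell cycle genes were low, with 7 of 20 tested and 0 called.

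RNA of acinar cells was present on both sides. Acinar enzyme genes took 0.506% and 0.481% of the summed UMIs with and without Neurog3 in mouse 1, 1.46% and 1.75% in mouse 2, and 0.159% and 0.176% in mouse 3. Of 14 tested acinar genes 12 were below 0 with a median of -0.12, 4 had an unadjusted p under 0.05 and 0 were called. Among all genes tested 51.1% were above 0, 5.37% had such a p and 0.082% were called. For 2 or more Neurog3 UMIs against 0, all 14 were below 0 with a median of -0.33, 11 had an unadjusted p under 0.05 and 2 were called lower. Among all genes of that split 4.65% had such a p and 0.116% were called. Within the side without Neurog3, deeper minus shallower cells put Prss2 at 0.18, -0.77 and -0.51 and Cela1 at 0.38, -0.40 and -0.35. The elastase gene Cela1 was at 510 and 574, 1096 and 1201, and 296 and 466 CPM (log2 difference -0.34, edgeR adjusted p = 0.07). Duct genes took 0.198% to 0.242% of UMIs with Neurog3, and endothelial, macrophage, pericyte and Schwann genes each 0.0236% or less on either side. The duct share came mostly from Clu, Epcam, Krt18 and Krt8, while Krt19 had 1, 1 and 0 UMIs and Cftr 0, 0 and 1 in mice 1, 2 and 3. The macrophage share came mostly from C1qa, with 305, 383 and 1169 UMIs, while C1qb had 4, 0 and 10, Csf1r 0, 0 and 6, and Adgre1 none. Of the endothelial markers Egfl7 had 38, 39 and 135 UMIs and Esam 11, 13 and 65, while Cdh5 had 1, 0 and 0. Egfl7 and Esam were the 2 of 8 endothelial genes tested. Each was above 0 on the log2 scale, the smaller of the 2 differences at 0.12 and the larger at 1.04. At an unadjusted p under 0.05 there was 1, and 0 were called. Of 12 duct genes 8 were tested, 2 had an unadjusted p under 0.05 and 0 were called. With 0.082% of all genes tested called, the lack of calls does not set these lists apart. The part of this RNA in the comparison was not tested.

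Fam241b, whose body contains Neurog3 on the other strand, did not follow the split but followed the cell type. Its level was 70.2 and 79.3 CPM with and without Neurog3 in mouse 1, 60.4 and 70.7 in mouse 2, and 76.0 and 64.1 in mouse 3, a log2 difference of 0.06 (95% interval -0.20 to 0.33). Over all delta cells it was at 68.6 ± 5.86 CPM (SD, n = 3), against 9.58 ± 0.817 in insulin-rich, 15.3 ± 1.77 in glucagon-rich and 18.6 ± 8.86 in Ppy-rich cells. The delta values of 62.3 to 73.9 lay above all values of those 3 classes. Whether the counting used strand is not given in the sources used here, so reads of the pair are reported as uncertain. Tspan15, 50633 bases beyond the end of Neurog3, was at 61.1 ± 7.96 CPM in delta cells and 64.1 ± 24.5 in Ppy-rich cells, with a log2 difference between the sides of -0.10 (-0.37 to 0.17).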

How the data were processed

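The deposited matrices hold counts, whole UMIs per gene and barcode, 1 per mouse. The authors used Cell Ranger 2.2 and mm10, per the submitters' processing notes, and the headers of the matrices give a software version of 3.1.0. How barcodes were selected for deposit and whether doublets were removed are not given in the sources used here. Libraries held 32389170, 48076507 and 57849496 UMIs. Libraries shared 148, 9 and 13 barcodes, none of them delta cells. The delta cells summed to 1435225, 1926775 and 5618841 UMIs.

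From these counts, UMIs were summed per mouse and side and tested by quasi-likelihood (edgeR 4.0.16, run under R 4.3.3). Low genes were removed by filterByExpr, libraries scaled by TMM, the dispersion fit was robust, the mouse was a block, and p values were adjusted by Benjamini-Hochberg across all 8559 genes of the fit. The genes that chose the cells were part of this adjustment but are not counted among calls or genes tested. The block follows from the animals. Over 2581 genes, deviations from the side means correlated at 0.283, 0.601 and 0.830 within a mouse, and at -0.675 to 0.191 across mice. The 6 sums leave few residual degrees of freedom, so the spread is largely pooled over genes. Cells were thinned without replacement with a fixed seed. Doublets were kept, and scores of Scrublet (scanpy 1.11.5), removed as an alternative at 0.8% per 1000 barcodes, marked 4 delta cells. The fit was tested on simulated data. Gene positions are from the GENCODE M21 annotation, which holds 30934 of the 31053 feature IDs.

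The genes named are the 10 largest folds per direction among called genes with 1 sign in every mouse, a mean of 50 CPM and no numbered gene-model symbol. Where fewer than 5 passed, the 10 smallest p values were taken instead. All tested members of the progenitor list, up to 4 members of each other list and neighbours of Neurog3 within 250 kb were added. Some of these are not reported here. The members and lists were chosen with earlier results of these data known. Alternatives covered depth, the delta limits, scaling, filtering, doublets, DESeq2 1.42.0, the block and leaving out each mouse.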

Additional observations from a re-analysis of the deposited data

How the results depend on the processing

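The number of genes called (7) was 9 for 2 or more Neurog3 UMIs, 7 with Sst at least 15%, 8 with hormone and mitochondrial genes out of the library sizes, and 7 with the choosing genes out of the adjustment (added after the data were seen). It was 3 when thinned to 5000 UMIs, 1 when sides came from the thinned counts, 1 at the nearest depth and 4 at 10000 or more UMIs. It was 15 under stricter hormone limits, 13 without TMM, 13 with no filter on low counts and 14 with doublet scores removed. It was 4 to 13 when a mouse was left out. DESeq2 called 0 (16 genes at an unadjusted p under 0.05, smallest adjusted p 0.708). With no replicate block edgeR called 0 (137 at an unadjusted p under 0.05). A second thinning draw, added after the data were seen, called 0 (190), and thinning to 10000 UMIs 6. The 3 calls in thinned cells became 0 to 5 when a mouse was left out. In thinned cells without mouse 3, 6 of the 7 genes kept their direction. The 7 genes kept their direction in all 18 alternatives of the unthinned count, Fxyd3 at -1.80 to -0.50 and Gap43 at 0.26 to 0.56. The mean share with Neurog3 of 47.8% was 20.9% when thinned and 20.2% for 2 or more UMIs, and 44.2% to 50.9% when a mouse was left out. Neurog3 was read at 1 UMI in 167 of 289 positive cells, so depth limits which side a cell falls on. With 3 mice no permutation test could go below p = 0.25.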

Other observations

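Apart from the split, several transcription factors of the endocrine cascade stood higher in delta cells than in the other endocrine classes, as CPM of each class's summed UMIs without TMM. Insm1 was at 169 ± 7.48 in delta cells (SD, n = 3 mice), against 63.6 ± 10.6 in insulin-rich, 36.5 ± 6.71 in glucagon-rich and 37.1 ± 2.46 in Ppy-rich cells. Rfx6 was at 94.5 ± 3.73, against 19.1, 30.4 and 9.52. Rfx3, a factor of ciliated and endocrine cells, was at 50.3 ± 5.38, against 9.65, 17.5 and 9.21, and St18 at 107 ± 23.4, against 34.9, 41.6 and 29.5. Pax6 was at 288 ± 24.3, against 139, 119 and 111.

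Other members of the cascade did not share this order. Neurod1 was at 90.7 ± 7.61 in delta cells and 92.0 ± 20.4 in insulin-rich cells, within the spread between mice, and at 105 ± 16.5 in glucagon-rich cells. Nkx2-2 was at 33.7 ± 11.2 in delta cells and 35.8 ± 7.54 in insulin-rich cells, a difference within the spread, and at 74.4 ± 14.5 in Ppy-rich cells. Fev was at 18.4 ± 1.19, 18.1 ± 5.90 and 21.6 ± 9.94 in delta, glucagon-rich and Ppy-rich cells and 1.38 ± 0.896 in insulin-rich cells. The classes were chosen by their hormone UMIs, which count in each CPM total, and the part of these totals in the differences was not tested.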
